A study of Mus musculus with 4 samples.

Results

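The genes of the proteasome, the protease complex that degrades ubiquitin-tagged proteins, were compared between gastrocnemius muscle of MCK-PPARb mice and of non-transgenic littermates. Members were the genes whose symbol in the platform annotation starts with Psma, Psmb, Psmc, Psmd, Psme, Psmf or Psmg, each represented by its single-symbol probe set of highest mean. The rule took 48 of the 12393 genes with a probe set of 1 symbol, and it used no measured difference between the groups. Of the 48, 46 encode subunits, regulators or assembly factors of the proteasome. Psmc3ip and Psme3ip1, named for proteins that bind a subunit, were taken by their symbols alone. The probe set of Psme2 carries the symbol of a second gene as well, so Psme2 is not a member, and Psmb11 is not analysed here. In all, 45 members lay above the filter on low signals, the median of all probe sets at 444 signal units, and Psma8, Psmb9 and Psmc3ip lay below it. Only those 45 were tested in the main fit, while an alternative without a filter took all 48.

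The series holds 4 Affymetrix arrays, 2 of non-transgenic and 2 of MCK-PPARb mice, each with muscle RNA taken at 6 weeks of age. The non-transgenic mice are wild-type littermates of the transgenic ones. MCK-PPARb mice overexpress the nuclear receptor PPARbeta, encoded by Ppard, in muscle only, and the prefix MCK names the muscle creatine kinase promoter, which is active in muscle fibres. The values are MAS5 signal intensities on a linear scale, in which a gene's level is read from a whole piece of muscle. Fewer cells of a type and less RNA per cell cannot be told apart in such samples. Replicates are called biological in the labels, but the design text can also be read as repeated samples of the same mice, so the p-values cover no more than the variation among these 4 samples, and that may be technical.

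The proteasome has a barrel-shaped core, called 20S, made of stacked rings of alpha subunits (Psma genes) and beta subunits (Psmb genes). A regulatory cap, called 19S, recognises and unfolds tagged proteins with a base of ATPases (Psmc genes) and a lid and scaffold (Psmd genes). In cells exposed to interferon, the catalytic beta subunits Psmb5, Psmb6 and Psmb7 are replaced by Psmb8, Psmb9 and Psmb10, which forms the immunoproteasome. The Psme genes encode other activators that cap the core. In skeletal muscle the proteasome takes part in the normal turnover of contractile proteins and in their loss during wasting.

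Ppard read 2169 and 2825 signal units in non-transgenic against 126049 and 98797 in MCK-PPARb muscle, 45.1-fold higher (limma, adjusted p = 0.000187), in the direction of the labels. All 9 measured fibre markers of 10 listed, such as Acta1, Ckm and Myh4, lay above the filter, so muscle RNA was present. Their summed signal was 1851050 and 1080230 in non-transgenic against 1249070 and 1088950 in MCK-PPARb muscle, and all 9 had a difference below 0. Those of Tnnt3 (-0.39), Acta1 (-0.33) and Actn3 (-0.26) turned sign without non-transgenic replicate 1. With quantile normalization they were -0.11, -0.021 and -0.00092. Ckm, Myh4, Mylpf, Tnni2 and Ttn turned sign too, as their MCK-PPARb geometric means exceeded non-transgenic replicate 2 (Ckm 138587 against 118251). Only Myh2 stayed below 0 (87196 against 104423) without non-transgenic replicate 1. That array gave the 10 brightest probe sets the largest share of the signal, 4.20%, and the others gave them 2.36% to 2.78%. Summed markers of adipocytes (4 of 6 measured) read 2284 and 2590 in non-transgenic against 4248 and 4870 in MCK-PPARb muscle, and those of leukocytes (20 of 21 measured) 21731 and 18984 against 21656 and 26946. No marker of either list was listed at 0. The adipocyte sum was carried by Adipoq and Retn, while Lep (131 and 86.8 against 55.7 and 67.2) and Cidec (197 and 203 against 61.3 and 340) lay below the filter and were not higher on both MCK-PPARb arrays. Cd74, Csf1r and H2-Aa were among the largest signals of the leukocyte sum, and 9 of its markers lay below the filter. The part of these cells in the results below was not tested.

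No member of the proteasome passed the test. Of the 45 members above the filter, 0 were called at an adjusted p under 0.05 with limma, while 0.731% of all 6841 genes tested were called, 0.409% with MCK-PPARb higher and 0.322% with it lower. Unadjusted p-values were under 0.05 for 4 members, Psma6, Psmd13, Psmb3 and Psme4, and for 10.9% of all genes. The first 3 were higher in MCK-PPARb muscle (5.31% of all genes) and Psme4 was lower (5.57%). The smallest adjusted p of a member was 0.242, that of Psma6. Log2 differences, MCK-PPARb minus non-transgenic, ran from -0.54 for Psme4 to 0.72 for Psma6, with a median of 0.13 beside 0.011 over all genes. Differences were above 0 for 27 members and below 0 for 18, while 51.2% of all genes were above 0. The groups did not overlap for 25 members, and for 42.9% of all genes. For 18 of the 45 each MCK-PPARb array exceeded each non-transgenic one, as did 22.2% of all genes. For 7 members each lay below, beside 20.8% of all genes, and the groups overlapped for 20. A single gene cannot go below p = 0.333 in an exact permutation test with 2 arrays against 2.

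**Figure D1:**
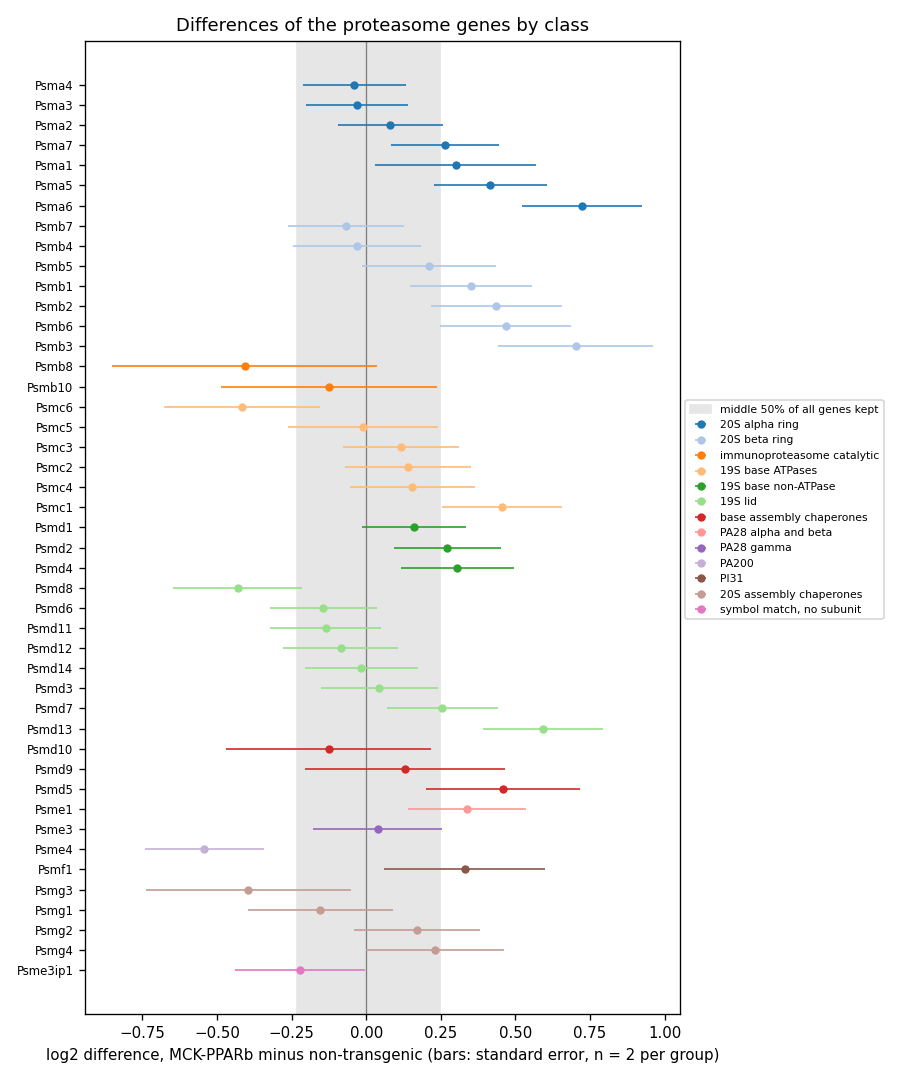
Log2 difference of each of the 45 tested genes (x axis, MCK-PPARb minus non-transgenic, bars show the standard error with n = 2 per group), ordered within its class, with the middle 50% of all 6841 genes shaded. Differences run from -0.54 for Psme4 to 0.72 for Psma6, and none passed the test.

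The positive median rested on 1 array. MCK-PPARb replicate 2 held the highest signal of the 4 arrays for 20 of the 45 members, and for 26.2% of all genes. Without it the median of the members was 0.0013 and 23 differences were above 0. Without MCK-PPARb replicate 1 the median was 0.22. With quantile normalization it was 0.16. Centring each array on its median moved the median of all genes from 0.011 to -0.095 and that of the members to 0.024, so the members lay 0.12 above all genes in both settings.

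Promoters of 4 members are shown because Psma6 and Psme4 are the members with the largest difference in either direction, and Psmb5 and Psmb6 are catalytic core members with a match near the start to the antioxidant response element. That element, searched as TGACNNNGC on both strands, is the motif through which the factor encoded by Nfe2l1 drives proteasome genes. Sequences are from RefSeq, build GRCm38.p6, and run from 250 bases before the start to 10 after it, on the strand of the gene. Capitals mark matches to the motifs searched.
Psma6, first start, chr12:55383972-55384231, + strand: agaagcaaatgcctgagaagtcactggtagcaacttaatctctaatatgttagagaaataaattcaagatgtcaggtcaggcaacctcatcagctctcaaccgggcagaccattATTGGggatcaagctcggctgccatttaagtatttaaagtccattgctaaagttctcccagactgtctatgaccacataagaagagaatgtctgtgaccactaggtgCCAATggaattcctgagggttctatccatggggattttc
Psma6, second start, chr12:55398575-55398834, + strand: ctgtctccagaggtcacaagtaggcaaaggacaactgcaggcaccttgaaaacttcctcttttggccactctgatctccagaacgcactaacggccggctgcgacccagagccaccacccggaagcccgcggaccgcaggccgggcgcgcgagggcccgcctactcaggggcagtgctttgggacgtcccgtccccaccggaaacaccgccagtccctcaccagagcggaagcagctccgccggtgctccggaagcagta
Psme4, chr11:30771525-30771784, + strand: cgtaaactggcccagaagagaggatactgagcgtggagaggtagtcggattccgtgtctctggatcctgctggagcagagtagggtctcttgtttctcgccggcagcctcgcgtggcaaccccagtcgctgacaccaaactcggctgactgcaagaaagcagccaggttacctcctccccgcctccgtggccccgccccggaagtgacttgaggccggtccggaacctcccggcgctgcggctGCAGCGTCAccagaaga
Psmb5, chr14:54617986-54618245, - strand: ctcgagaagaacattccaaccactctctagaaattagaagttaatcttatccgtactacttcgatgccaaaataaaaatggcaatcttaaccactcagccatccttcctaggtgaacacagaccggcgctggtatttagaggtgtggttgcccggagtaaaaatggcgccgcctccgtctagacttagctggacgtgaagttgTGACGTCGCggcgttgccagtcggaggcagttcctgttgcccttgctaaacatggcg
Psmb6, chr11:70525107-70525366, + strand: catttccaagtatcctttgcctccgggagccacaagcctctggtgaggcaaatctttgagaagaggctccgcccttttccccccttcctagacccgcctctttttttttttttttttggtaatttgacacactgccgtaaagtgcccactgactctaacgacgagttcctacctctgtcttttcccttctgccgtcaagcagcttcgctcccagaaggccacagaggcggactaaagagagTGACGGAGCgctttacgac

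The capitals at the first Psma6 start are 2 CCAAT boxes, 1 on each strand, and the second Psma6 start holds no match. Psmb5 holds TGACGTCGC, Psmb6 holds TGACGGAGC and Psme4 holds GCAGCGTCA, the element on the opposite strand. RefSeq promoters of 300 bases (250 before and 50 after the start) were at hand for 38 of the 46 subunit and factor genes, 40 starts in all, and Psmb7 was not among them. The antioxidant response element was found at 6 of the 40 (15.0%) and at 12.4% of all 32851 promoters. CCAAT was found at 13 (32.5%) and at 37.4% of all. The core of an interferon-stimulated element, GAAA repeated after any 2 bases, was found at 5 (12.5%) and at 3.44% of all, and those 5 were the promoters of Psmb3, Psmd4, Psmd9, Psme1 and Psmg4. The PPAR response element (AGGTCA, any base, AGGTCA) and the heat shock element core (GAA, any 2 bases, TTC, any 2 bases, GAA) were at none of the 40, and at 0.0396% and 0.603% of all promoters. The motifs were searched on both strands, a match may overlap another, and a match is a description of letters.

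The 14 subunits of the 20S core all lay above the filter and had a median log2 difference of 0.28, with 0 called. Of these, 10 had a difference above 0 and 4 below 0. Each MCK-PPARb array exceeded each non-transgenic one for 8 (22.2% over all genes) and lay below for 2 (20.8% over all genes). The median was 0.14 without MCK-PPARb replicate 2, where most of the beta subunits were at their highest. Without MCK-PPARb replicate 1 it was 0.38.

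In the alpha ring, whose subunits form the gate of the core, the 7 differences ran from -0.040 to 0.72. Psma6 read 15602 and 13830 in non-transgenic against 21310 and 27557 in MCK-PPARb muscle. Its groups did not overlap, and the level was 1.65-fold higher (log2 0.72 ± 0.20, standard error here and below, n = 2 arrays per group, adjusted p = 0.242 with limma). The Psma6 probe set next in mean read 11573 and 10781 against 18344 and 22009 (log2 0.85 ± 0.19, adjusted p = 0.125 with limma), and its groups did not overlap. The dimmest read 347 and 255 against 1323 and 530, with both non-transgenic signals below the filter level, so it passed the filter only through the MCK-PPARb arrays and lends Psma6 no support. Both of these further probe sets are of the _x_at type, whose probes may match other transcripts. Psma6 was the 1 member called in any alternative, under quantile normalization with a replicate block (log2 0.76, adjusted p = 0.0261 with limma), a setting chosen after seeing the data.

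Psma5, another alpha subunit, read 5942 and 5652 in non-transgenic against 8461 and 7067 in MCK-PPARb muscle (0.42 ± 0.19, adjusted p = 0.505 with limma). Its groups did not overlap, and its other probe set above the filter gave 0.67. Psma7 read 6288 and 6284 against 7125 and 8007 (0.26 ± 0.18), and its other probe set gave 0.36. Both Psma7 probe sets separated the groups in the same direction. Psma3 read 18100 and 18525 against 18044 and 17810 (-0.031), and Psma4 12211 and 11607 against 11595 and 11562 (-0.040). These 2 alpha subunits lay below the non-transgenic arrays by margins of less than 1 standard error. Psma2, at 7098 and 7040 against 7623 and 7330, had a difference of 0.081 ± 0.18, and the 95% interval ran from -0.33 to 0.49. Psma1 read 2508 and 3921 against 3435 and 4335 (0.30 ± 0.27), with overlapping groups.

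In the beta ring, which carries the catalytic sites, the 7 differences ran from -0.068 to 0.70. Psmb3, a structural beta subunit, read 3845 and 6172 in non-transgenic against 7302 and 8595 in MCK-PPARb muscle, 1.63-fold higher (0.70 ± 0.26, adjusted p = 0.384 with limma). The 2 non-transgenic arrays were far apart, so that the difference was 0.36 without replicate 1 of that group and 1.04 without replicate 2, and the second Psmb3 probe set gave 0.26 (3372 and 4344 against 4595 and 4541). Psmb2, also structural, read 6023 and 4313 against 7061 and 6730 (0.44 ± 0.22), and the difference was 0.68 without non-transgenic replicate 1 and 0.19 without replicate 2. Psmb1 read 11255 and 10488 against 11966 and 16063 (0.35 ± 0.21). Its second probe set read 349 and 426 against 575 and 585, passed the filter only through the MCK-PPARb arrays, and gave 0.38 with signals raised to the filter level. For Psmb3, Psmb2 and Psmb1 the groups did not overlap, with MCK-PPARb above.

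The catalytic subunits of the core differed in sign. Psmb6, the caspase-like subunit, read 12271 and 9693 in non-transgenic against 13080 and 17376 in MCK-PPARb muscle (0.47 ± 0.22, adjusted p = 0.516 with limma), and its groups did not overlap. Its difference was 0.30 without non-transgenic replicate 2 and 0.26 without MCK-PPARb replicate 2. Psmb5, the chymotrypsin-like subunit, read 16904 and 14688 against 15216 and 21860 (0.21 ± 0.22), with MCK-PPARb replicate 1 inside the non-transgenic range. Without MCK-PPARb replicate 2 its difference was -0.050. Psmb7, the trypsin-like subunit, read 56127 and 50723 against 46300 and 55928 (-0.068 ± 0.19), with a 95% interval from -0.52 to 0.39. Psmb4, a structural subunit, read 14372 and 13805 against 11601 and 16363 (-0.032), and its 2 probe sets differed in sign, both with overlapping groups.

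**Figure D2:**
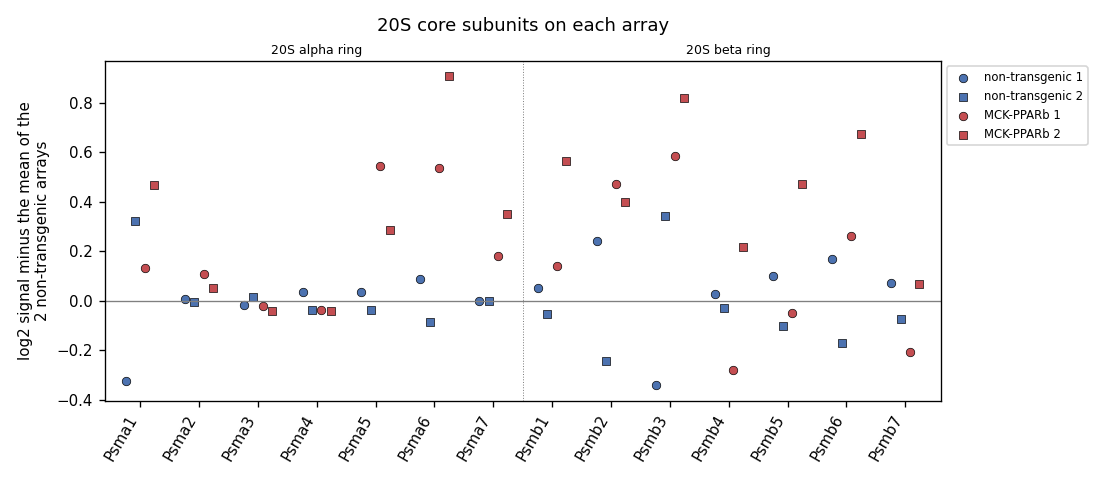
Log2 signal of the 14 subunits of the 20S core on each array, minus the mean of the 2 non-transgenic arrays of that gene (y axis), with non-transgenic arrays in blue and MCK-PPARb arrays in red. For Psma6 and Psmb3 both MCK-PPARb arrays stand above both non-transgenic ones, while Psma3 and Psma4 lie close to 0 on all 4.

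The immunoproteasome subunits had low signals and no difference beyond the spread. Psmb8, which replaces Psmb5, read 619 and 437 in non-transgenic against 286 and 537 in MCK-PPARb muscle (-0.41 ± 0.44, adjusted p = 0.812 with limma). Its groups overlapped, 2 of the 4 signals lay below the filter level, and without MCK-PPARb replicate 1 its difference was 0.045. Psmb10, which replaces Psmb7, read 597 and 1069 against 721 and 744 (-0.12 ± 0.36), with both MCK-PPARb arrays between the non-transgenic ones. The 95% intervals, from -1.45 to 0.63 for Psmb8 and from -0.97 to 0.72 for Psmb10, leave room for changes in either direction. Psmb9, which replaces Psmb6, lay below the filter at 200 and 69.2 against 64.2 and 126, and was not tested in the main fit. Psma8, an alpha subunit of the testis, read 19.4 and 11.8 against 15.1 and 109, also below the filter.

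The change of each immunoproteasome subunit was set against that of the subunit it replaces. The log2 ratio of Psmb8 to Psmb5 had a difference between the groups of -0.62, which was -0.31 with signals raised to the filter level, since Psmb8 lay near it. Centred on its mean over the arrays, it read 0.46 and 0.16 in non-transgenic against -0.50 and -0.12 in MCK-PPARb muscle, so the groups did not overlap, and the exact permutation test gave p = 0.333 (two-sided), the smallest it can give here. For Psmb10 against Psmb7 the difference of differences was -0.057, with overlapping groups (exact permutation p = 1.0). No other pair was compared, and with 2 arrays a group the test could not have passed for either.

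Psme1, the alpha subunit of the interferon-inducible activator PA28, read 4675 and 4752 in non-transgenic against 5378 and 6593 in MCK-PPARb muscle (0.34 ± 0.20, adjusted p = 0.607 with limma). Its groups did not overlap, its difference was 0.19 without MCK-PPARb replicate 2, and its sign was opposite to those of Psmb8 and Psmb10. The 3 tested members of the list of immunoproteasome and PA28 subunits had a median of -0.12. That median turned to 0.095 with quantile normalization, where 2 of the 3 lay above the filter, and to 0.30 without non-transgenic replicate 2, so the list has no settled direction.

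The immunoproteasome is abundant in leukocytes, and its genes respond to interferon. Of 21 listed genes of antigen processing and the interferon response, 13 lay above the filter, 0 were called, 4 had a difference above 0 and 9 below 0, and the median was -0.079. Class I genes lay below 0, though their probe sets may read near-identical copies. H2-K1 read 6817 and 6817 in non-transgenic against 3129 and 5385 in MCK-PPARb muscle (-0.73 ± 0.27, adjusted p = 0.389 with limma), H2-D1 had a difference of -0.45 and B2m, the light chain they share, of -0.40. That of H2-K1 was -0.34 without MCK-PPARb replicate 1 and -1.12 without replicate 2, and that of H2-D1 was -0.28 without non-transgenic replicate 2. None of the 3 genes overlapped between the groups, and each was lower in MCK-PPARb muscle. Of the 13 listed genes above the filter, these 3 lay below without overlap and 1 above. Over all genes the shares were 20.8% and 22.2%. Pdia3, a chaperone of the peptide-loading complex, had a difference of 0.48, with MCK-PPARb above. Of 21 leukocyte markers, 11 lay above the filter, 0 were called, 8 had a difference above 0 and 3 below 0, and the median was 0.16. Cd74, the invariant chain of class II molecules, had a difference of 0.72 and Adgre1, a macrophage marker, of 0.83, while Tyrobp was at 0.45 (0.22 without MCK-PPARb replicate 1). These 3 of the 11 lay above without overlap and 0 lay below, beside 22.2% and 20.8% of all genes. Cd68 was at 0.12, Csf1r at -0.016 and Lyz2 at -0.25, each with overlapping groups. Of the class II chains, H2-Aa was at 0.36 and H2-Eb1 at 0.16, and H2-Ab1 was at -1.08, where MCK-PPARb replicate 1 read 337 against 2241, 2300 and 3439 on the other arrays. These values were measured beside those of the immunoproteasome subunits, and their part in them was not tested.

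The 17 subunits of the 19S regulatory particle with a Psm symbol all lay above the filter, and 0 were called. Their median log2 difference was 0.12. Of these, 10 were above 0 and 7 below. Each MCK-PPARb array exceeded each non-transgenic one for 6 (22.2% over all genes) and lay below for 2 (20.8% over all genes). The groups overlapped for 9. The 8 without overlap were 47.1% of the 17, close to the 42.9% of all genes. The median was -0.033 without MCK-PPARb replicate 2 and 0.23 without MCK-PPARb replicate 1, so its sign depended on 1 array. With median centring it was 0.012 and with quantile normalization 0.16.

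The 6 ATPases of the base, which unfold the substrate and thread it into the core, had differences from -0.42 to 0.46. Psmc1 read 3117 and 3542 in non-transgenic against 4255 and 4878 in MCK-PPARb muscle (0.46 ± 0.20, adjusted p = 0.485 with limma), and its groups did not overlap. Psmc6 read 3882 and 6318 against 3806 and 3623 (-0.42 ± 0.26). It lay below both non-transgenic arrays, but by a narrow margin to replicate 1, and leaving out non-transgenic replicate 2 gave -0.064. Psmc4 read 4533 and 4952 against 4630 and 6004 (0.15), and Psmc2, Psmc3 and Psmc5 had differences of 0.14, 0.12 and -0.010. For Psmc2, Psmc3 and Psmc4, MCK-PPARb replicate 2 stood above the other 3 arrays, and the groups overlapped. On the second Psmc2 probe set the groups did not overlap (0.26), while on those of Psmc6 (-0.21) and Psmc4 (0.50 ± 0.83) they overlapped.

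The 3 scaffold and receptor subunits of the base with a Psm symbol were above both non-transgenic arrays on both MCK-PPARb arrays. Over all genes, 22.2% were so. Psmd4, which binds ubiquitin chains, read 9953 and 8084 in non-transgenic against 10941 and 11216 in MCK-PPARb muscle (0.30 ± 0.19, adjusted p = 0.632 with limma), while its second probe set gave 0.054 with overlapping groups. Without non-transgenic replicate 2 the Psmd4 difference was 0.15. Psmd2 read 14121 and 12827 against 15289 and 17262 (0.27 ± 0.18). Psmd1 read 11450 and 10796 against 12924 and 11948 (0.16 ± 0.17), and gave 0.10 without MCK-PPARb replicate 1. The size of each was under 2 standard errors.

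The lid removes ubiquitin from the substrate. Its 8 subunits with a Psm symbol had differences from -0.43 to 0.59, with a median of -0.051. Psmd13 read 2601 and 2598 in non-transgenic against 3678 and 4177 in MCK-PPARb muscle, 1.51-fold higher (0.59 ± 0.20, adjusted p = 0.339 with limma). Its second probe set read 1303 and 1514 against 1212 and 1678 (0.022), so the 2 probe sets of the gene did not give the same size. Psmd8 read 16538 and 11672 against 10026 and 10594 (-0.43 ± 0.22, adjusted p = 0.553 with limma). Its groups did not overlap, and leaving out non-transgenic replicate 1 gave -0.18 and leaving out replicate 2 gave -0.68. Psmd7, the partner of the deubiquitinase, read 3892 and 4189 against 4759 and 4882 (0.26 ± 0.19). Psmd14, the deubiquitinase itself, read 6254 and 5928 against 6522 and 5556 (-0.016 ± 0.19), with a 95% interval from -0.46 to 0.43. Psmd11, a lid scaffold, had 4 probe sets above the filter, from -0.14 on the brightest to 0.48, and only the last separated the groups. Psmd3, Psmd6 and Psmd12 had differences of 0.044, -0.14 and -0.086 with overlapping groups.

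**Figure D3:**
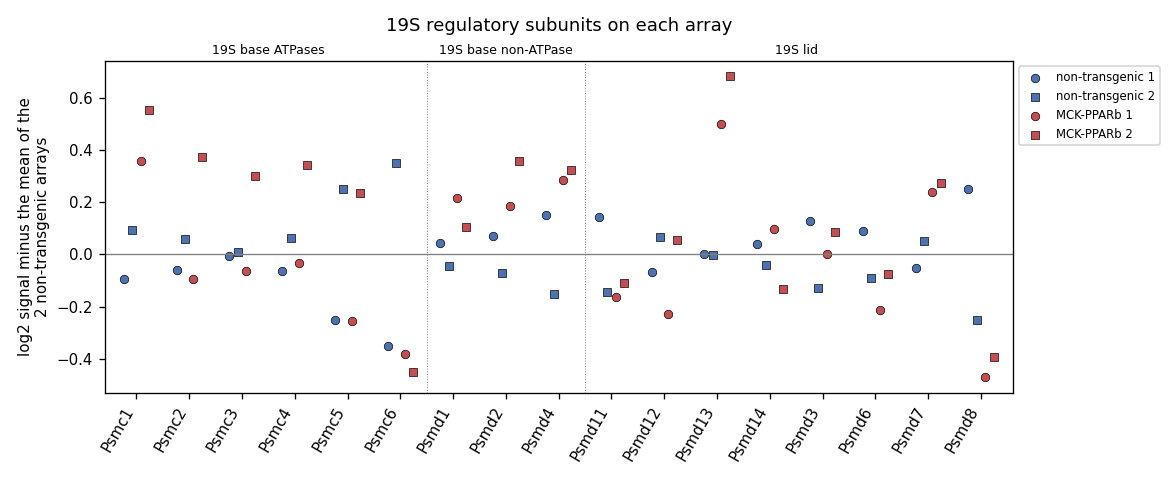
Log2 signal of the 17 subunits of the 19S regulatory particle with a Psm symbol on each array, minus the mean of the 2 non-transgenic arrays of that gene (y axis), grouped into base ATPases, other base subunits and lid. Psmd13 and Psmc1 stand above both non-transgenic arrays, Psmd8 and Psmc6 below them, and most lid subunits overlap.

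Psme4, which encodes PA200, an activator that caps the core without ATP, was the member furthest below 0. It read 24937 and 18865 in non-transgenic against 14756 and 15035 in MCK-PPARb muscle, 1.46-fold lower (log2 -0.54 ± 0.20, adjusted p = 0.384 with limma). The groups did not overlap. The other 2 probe sets gave -0.72 ± 0.18 (21985 and 19095 against 11791 and 13166, adjusted p = 0.193 with limma) and -0.74 ± 0.20 (22753 and 17546 against 12606 and 11379, adjusted p = 0.225 with limma). All 3 separated the groups. The difference was -0.34 without non-transgenic replicate 1 and -0.74 without non-transgenic replicate 2. Psme3, the nuclear PA28 subunit gamma, read 2354 and 2321 against 2203 and 2615 (0.038 ± 0.22), and its sign turned with median centring (-0.068). Psmf1, which encodes PI31, a protein that binds the core, read 1005 and 852 against 1233 and 1097 (0.33 ± 0.27, and 0.21 without non-transgenic replicate 2), and its second probe set had the opposite sign (-0.090).

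Assembly factors had differences of both signs. Of the chaperones that build the core, Psmg1 and Psmg2, which act as a pair on the alpha ring, had differences of -0.15 and 0.17 (0.045 to 0.29 for Psmg2 with 1 array left out), and Psmg3 and Psmg4, the other pair, of -0.39 and 0.23. Psmg3 read 605 and 753 in non-transgenic against 589 and 448 in MCK-PPARb muscle (-0.39 ± 0.34, from -0.59 to -0.20 with 1 array left out), and Psmg4 1405 and 1534 against 1797 and 1653 (0.23 ± 0.23). Each pair held 1 member of either sign, and each 95% interval included 0. Of the chaperones of the base, Psmd5 read 1218 and 980.0 against 1438 and 1568 (0.46 ± 0.26, adjusted p = 0.590 with limma), and its groups did not overlap. Without non-transgenic replicate 2 its difference was 0.30. Psmd9 and Psmd10, also chaperones of the base, had differences of 0.13 and -0.13 with overlapping groups. Psme3ip1, which is no subunit, was at -0.22.

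**Figure D4:**
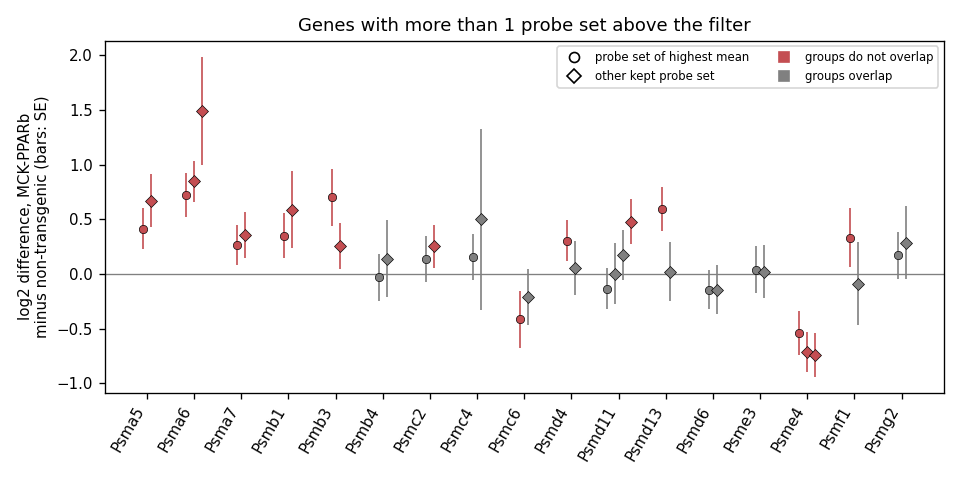
Log2 difference (y axis, bars show the standard error) of every probe set above the filter for the 17 genes with more than 1, circles marking the probe set of highest mean and red points those whose groups do not overlap. All probe sets of Psma6 lie above 0 and all of Psme4 below 0, while those of Psmb4, Psmd11 and Psmf1 differ in sign.

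Probe sets of a gene were compared where more than 1 lay above the filter. Among 17 such members, the differences had the same sign for 14, beside 62.7% of 2422 genes with more than 1. For 6 members every probe set separated the groups in the same direction, beside 15.9% of those genes. Probe sets that passed the filter only through 1 group had to differ, and leaving them out, a choice made after seeing the data, left 5 of 16 members and 15.6% of 2380 genes. Those 5 were Psma5, Psma6, Psma7 and Psmb3, with MCK-PPARb above, and Psme4, with MCK-PPARb below. Probe sets of a gene share the RNA of each array and are not replicates.

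The factors that act with the proteasome were taken from a list of 24 genes without a Psm symbol, of which 20 were measured and 19 lay above the filter. None passed in limma, 0 even at an unadjusted p under 0.05, and the median log2 difference was 0.072, with 10 above and 9 below 0. Nfe2l1, the transcription factor that raises proteasome genes when the proteasome is impaired, read 9137 and 8479 in non-transgenic against 8615 and 8842 in MCK-PPARb muscle (-0.012 ± 0.18). Its groups overlapped. Of the 19, 3 lay above the non-transgenic arrays without overlap and 2 below, beside 22.2% and 20.8% of all genes. Those above were Akirin2 (0.22), Txnl1 (0.27) and Ubqln1 (0.14), and those below were Zfand5 and Ubqln4. Zfand5, a proteasome-binding zinc finger protein, read 27780 and 30783 against 21749 and 23500 (-0.37 ± 0.18, adjusted p = 0.524 with limma). Uchl5, a deubiquitinase of the cap, was at -0.49, between -0.82 and -0.16 with 1 array left out. Ubqln4, a shuttle for ubiquitinated proteins, was at -0.32, between -0.49 and -0.15 in that case. Pomp, the maturation factor of the core, was at -0.040, and Vcp, the unfolding ATPase that delivers substrates, at -0.0017. Sem1, counted here and not with the lid for lack of a Psm symbol, was at -0.14 with overlapping groups. The 6 listed genes of ubiquitin and its activating enzymes had no probe set of 1 symbol and are not analysed here.

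Each array's level was summarised by the median over a class of log2 signal minus the gene's mean over the 4 arrays. For the 20S core it was -0.049 and -0.090 for non-transgenic against 0.011 and 0.22 for MCK-PPARb arrays. For the 19S particle it was -0.066 and -0.051 against -0.093 and 0.15. MCK-PPARb replicate 2 was high for both, and MCK-PPARb replicate 1 lay near the non-transgenic arrays. Over all genes the same median ran from -0.016 to 0.019. The SD between arrays of a group was 0.11 for the core median and 0.12 for the 19S median.

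**Figure D5:**
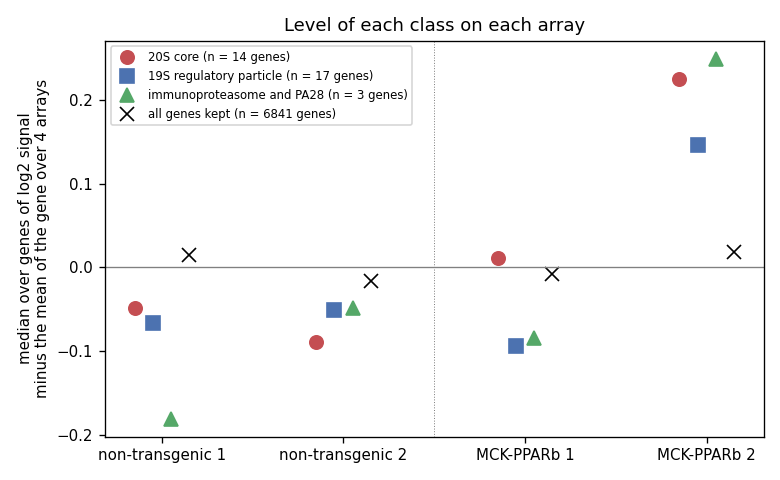
Median over the genes of a class of log2 signal minus the mean of each gene over the 4 arrays (y axis), by array, for the 20S core (14 genes), the 19S particle (17), the immunoproteasome and PA28 list (3) and all 6841 genes. MCK-PPARb replicate 2 stands at 0.22 for the core and 0.15 for the 19S particle, and MCK-PPARb replicate 1 at 0.011 and -0.093.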

How the data were processed

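The authors deposited a linear signal intensity for each probe set on each array, from MAS5 and GCOS processing, per the submitters' processing notes, with versions not given in the sources used here. After leaving out 2% of probe sets at each end, every array had a mean of 1501. Precision is limited by the number of arrays. Of 22690 probe sets, 64 controls were left out. Of the other 22626, 20380 carried 1 symbol, 691 several and 1555 none here. Symbols were looked up through the gene number in the table of assembly GRCm38.p6, which held 20351 of the probe sets with 1 symbol. Genes outside the rule took the symbol of that table, changed or not, and members were taken by their platform symbol. Signals were taken to log2 without a pseudocount, and 11313 probe sets with a mean log2 signal above the median were kept.

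All were fitted with limma 3.58.1 in R 4.3.3 (lmFit, eBayes with an intensity trend, two-sided, Benjamini-Hochberg adjustment over all kept probe sets, called at an adjusted p under 0.05). A gene was its probe set of highest mean. The variance prior was worth 5.38 degrees of freedom, beside 2 residual ones. The fit was tested on simulated data. Members and lists were chosen with earlier results of these data known. Genes named were all members of the immunoproteasome and PA28 classes, the catalytic core subunits, the 3 members of smallest p in each class, the 5 largest differences in each direction and the 3 of smallest p in each other list, and further members, probe sets and list genes were named after their values were seen. The starts shown were likewise chosen after the values. Alternatives are given in the closing section.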

Additional observations from a re-analysis of the deposited data

How the results depend on the processing

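No proteasome member was called under the alternatives listed at the outset, and 1, Psma6, was called with quantile normalization and a replicate block together, chosen after seeing the data. Over all genes, 50 were called, and 102 at an adjusted p under 0.1, 14 without the intensity trend, 218 with a replicate block, 249 with a replicate block after quantile normalization and 26 to 105 when 1 array was left out. The labels number the replicates but name no shared litter or day. Deviations of same-numbered arrays correlated at 0.28, and the replicate block left all members uncalled.

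The median of the immunoproteasome and PA28 list (-0.12) was 0.095 with quantile normalization, with or without the block, 0.34 with the filter at the 75th percentile, where 1 member remained, and -0.16 to 0.30 with 1 array left out. The core median was 0.14 to 0.38 and the 19S median -0.033 to 0.23 in that case. Psme3 turned to -0.068 with median centring. Among the 44 genes compared, with 1 array left out the sign also turned for Psmb5 (-0.050 to 0.47), Psmb7 (-0.20 to 0.068), Psmb8 (-0.86 to 0.045), Psmb10 (-0.55 to 0.30), Psmc4 (-0.033 to 0.34), Psmd9 (-0.16 to 0.42), Psmd10 (-0.32 to 0.071), Psme3 (-0.085 to 0.16), Acta1 (-0.82 to 0.15), Actn3 (-0.62 to 0.11) and Tnnt3 (-0.79 to 0.010). Of 646 comparisons of 44 genes with their main value, 628 kept direction and call. Signals near the filter level limit Psmb8 and Psmb10.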

Other observations

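Another probe set of Psmb1, a structural subunit of the beta ring, lay below the filter and was singled out after its values were seen. Its probes, of the _x_at type, may match other transcripts, and it was not called without a filter (adjusted p = 0.101 with limma). It read 58.3 and 31.6 in non-transgenic against 725 and 696 in MCK-PPARb muscle. The non-transgenic signals are far below the filter level, so no fold is given, and with signals raised to that level the log2 difference was 0.68. The Psmb1 probe set of highest mean gave 0.35.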
